A study of Arabidopsis thaliana with 9 samples.

Results

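SIG1 to SIG6 are the 6 nuclear genes of Arabidopsis thaliana that encode plastid sigma factors. They were taken by locus, and all 6 were found among the 25320 genes of the table, which names them SIGA to SIGF in the same order. The study is about H3K4me3 and the memory of low temperature, and its RNA came from stems and leaves of wild-type plants, grown in soil as 2-week seedlings. Each of 3 groups had 3 libraries. Control plants were kept at room temperature and are labelled day 0. Plants chilled once, labelled day 1, spent 6 h at 4 °C followed by 18 h of room temperature. Plants with repeated cold, labelled day 4, went through that cycle 4 times. The treatment text adds 6 h at 0 °C after the cycles without saying whether RNA was taken before or after it. The sampling hour is not given either. The day, and with it the age of the plants, changes with the group, so age and chilling cannot be told apart here, and nothing says whether the 3 libraries of a group came from separate plants.

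Chloroplasts keep a bacterial-type RNA polymerase, PEP, whose core subunits (rpoA, rpoB, rpoC1 and rpoC2) are encoded in the plastid genome. The core cannot find its promoters alone. Sigma factors, made in the cytosol from nuclear genes and imported, give it that ability, so the nucleus sets which plastid genes can be read. In Arabidopsis the members have partly separate duties: SIG2 serves tRNA genes, SIG3 serves psbN, SIG4 serves ndhF, SIG5 serves the light-responsive promoter of psbD, and SIG6 serves many photosynthesis genes in young leaves. SIG1 is linked to photosystem genes, and SIG5 is the member best known for responding to blue light and to stress.

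The 6 genes lie on 4 chromosomes, with starts and ends identical to TAIR10.1. SIG1 (AT1G64860) is at chr1:24097736-24100970 and SIG2 (AT1G08540) at chr1:2703295-2706860, both on the plus strand. SIG3 (AT3G53920) is at chr3:19960789-19963980, SIG4 (AT5G13730) at chr5:4429095-4430901, SIG5 (AT5G24120) at chr5:8157151-8160343 and SIG6 (AT2G36990) at chr2:15537225-15540139, all on the minus strand. The 250 bases before the annotated start were searched on both strands for 5 motifs known from light, clock and cold promoters. The windows of 3 members are shown because their changes after one chilling differ in kind: SIG5 had the largest rise, SIG4 was called lower and SIG3 was not called. They are TAIR10.1 sequence on the minus strand, at chr5:8160344-8160593 for SIG5, chr5:4430902-4431151 for SIG4 and chr3:19963981-19964230 for SIG3. Capitals mark motif matches.
SIG5: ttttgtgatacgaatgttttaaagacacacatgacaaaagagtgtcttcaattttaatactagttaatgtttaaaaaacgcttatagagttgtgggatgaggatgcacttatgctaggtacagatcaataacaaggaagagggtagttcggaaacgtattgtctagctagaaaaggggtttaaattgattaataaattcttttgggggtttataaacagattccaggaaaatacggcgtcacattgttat
SIG4: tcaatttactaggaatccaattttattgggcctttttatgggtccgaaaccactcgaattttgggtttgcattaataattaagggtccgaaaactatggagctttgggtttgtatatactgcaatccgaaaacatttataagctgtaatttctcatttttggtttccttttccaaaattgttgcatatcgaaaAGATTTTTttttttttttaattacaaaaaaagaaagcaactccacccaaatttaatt
SIG3: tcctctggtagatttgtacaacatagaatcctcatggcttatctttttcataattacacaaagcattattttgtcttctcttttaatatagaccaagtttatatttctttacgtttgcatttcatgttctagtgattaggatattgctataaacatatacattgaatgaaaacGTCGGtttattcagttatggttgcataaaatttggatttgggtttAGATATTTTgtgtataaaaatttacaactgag

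The SIG5 window held none of the 5 motifs, neither the G-box CACGTG, its core ACGTG (which every G-box contains), the evening element AAAATATCT, the CCA1-binding site AAAAATCT nor the CRT/DRE core CCGAC. In the SIG4 window the CCA1-binding site lay on the reverse strand, 57 to 50 bases before the start, beside a run of T. The SIG3 window lies wholly within a non-coding RNA annotation on the same strand (AT3G00910). It held the evening element 32 to 24 and CCGAC 77 to 73 bases before the start, both on the reverse strand. SIG2 had CCGAC 106 to 102 bases before its start, and the windows of SIG1 and SIG6 had no match. The windows of SIG1, SIG2 and SIG6 overlap the neighbouring genes AT1G64850, AT1G08530 and AT2G37000, that of SIG1 almost wholly. Over the same windows of 27443 nuclear protein-coding genes, CACGTG was present in 6.49%, ACGTG in 22.91%, AAAATATCT in 2.36%, AAAAATCT in 6.69% and CCGAC in 11.97%. These are matches of letters, not sites shown to be bound.

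Levels are FPKM, read counts scaled by gene length and library size, so that they can be set side by side between genes. Whole reads recovered from the FPKM steps gave library depths of 17.98 to 21.49 M reads. A member had between 467 reads (SIG4) and 6660 reads (SIG1) in a library, and counting error at the lowest read count of a member was at most 4.63%. The 4 leaf markers (RBCS1A and 3 antenna genes) summed to 26538 to 35692 FPKM in the 9 libraries, with all 4 detected in each group, and the 3 stem cellulose synthases to 5.16 to 11.4 FPKM. The sum of 5 MADS-box flower genes was 7.51 to 34.0 FPKM in control, 0.583 to 5.21 after one chilling and 0.548 to 22.1 after repeated chilling. AP3 was at 0 in cold once replicate 1 and in repeated cold replicates 1 and 3. The 2 root markers measured summed to 10.7 to 63.6 FPKM. Repeated cold replicate 1 stood apart, with 3561 FPKM summed over plastid-encoded genes against 477 to 673 in the other 8 libraries, and 516 FPKM over mitochondrial genes against 33.3 to 133.

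**Figure D1:**
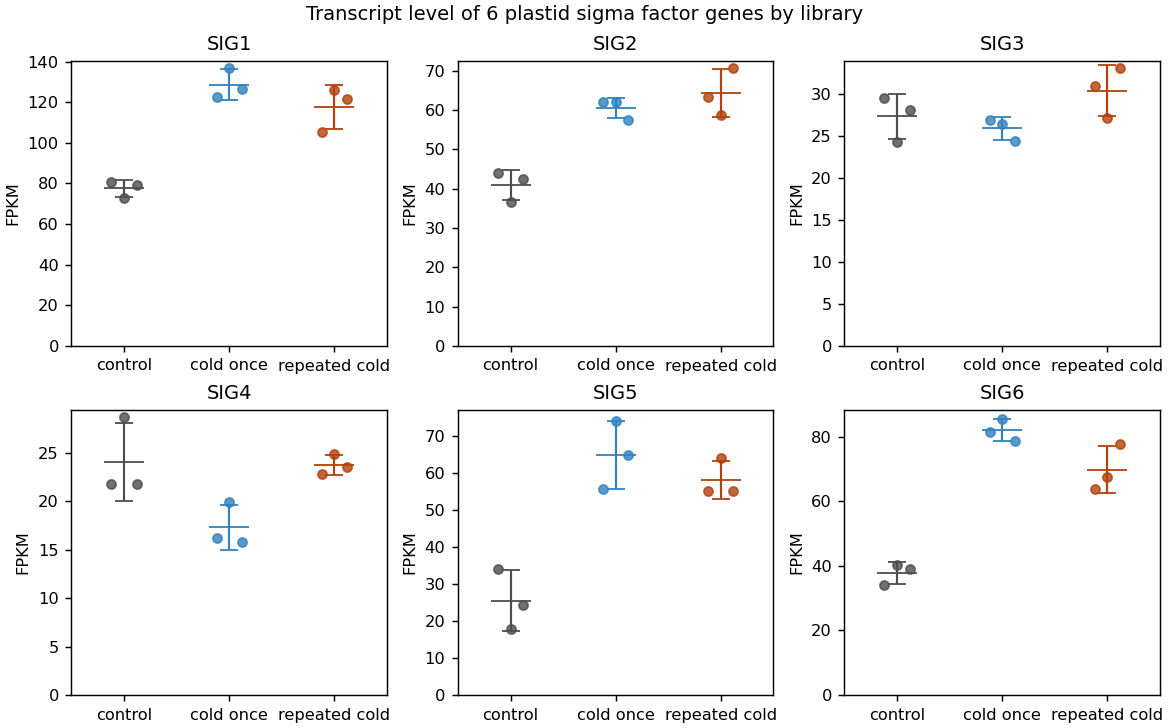
FPKM of each sigma factor gene in each of the 9 libraries, with group means and SDs (n = 3). The cold libraries of SIG1, SIG2, SIG5 and SIG6 all sit above the control libraries, and those of SIG3 do not separate from them.

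SIG1 was the most abundant member in every library. Its level was 80.8, 72.7 and 79.3 FPKM in the control libraries, 122, 137 and 126 after one chilling and 106, 126 and 122 after repeated chilling. All cold libraries lay above all control libraries, while the cold groups overlapped each other. The means were 77.6 ± 4.30 (SD, n = 3) in control, 129 ± 7.59 and 118 ± 10.9 FPKM, folds over control of 1.66 and 1.52.

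SIG6, which works with PEP early in chloroplast development, was at 34.0, 40.4 and 39.1 FPKM in control, 81.6, 85.7 and 78.8 after one chilling and 63.9, 67.5 and 77.9 after repeated chilling. No 2 of the 3 groups overlapped, and the libraries with repeated cold lay between the other two. The means were 37.8 ± 3.40, 82.0 ± 3.45 and 69.8 ± 7.24 FPKM (SD, n = 3), folds over control of 2.17 and 1.84.

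SIG5, the stress- and light-responsive member, had the largest fold and the widest spread among controls. Control libraries held 34.2, 17.8 and 24.5 FPKM, the once-chilled ones 55.9, 74.3 and 64.9, and the repeatedly chilled ones 55.3, 64.2 and 55.2. The highest control library was still below every cold library. The means were 25.5 ± 8.23, 65.0 ± 9.20 and 58.2 ± 5.15 FPKM (SD, n = 3), folds of 2.55 and 2.29.

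SIG2, needed for plastid tRNA transcription, stood at 43.9, 36.7 and 42.5 FPKM in control, 62.1, 62.1 and 57.6 after one chilling and 63.3, 58.8 and 70.8 after repeated chilling. The cold groups overlapped each other and neither overlapped control. The means were 41.04 ± 3.82, 60.6 ± 2.60 and 64.3 ± 6.05 FPKM (SD, n = 3), folds of 1.48 and 1.57.

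SIG3 and SIG4 stayed in the lower range. SIG3, the psbN factor, was at 29.6, 24.3 and 28.1 FPKM in control, 26.9, 26.5 and 24.4 after one chilling and 31.0, 27.1 and 33.1 after repeated chilling, so both cold groups overlapped control. SIG4, the ndhF factor, was at 21.8, 28.7 and 21.8 FPKM in control, 16.2, 19.98 and 15.8 after one chilling and 22.8, 24.9 and 23.5 after repeated chilling. Its once-chilled libraries lay below all others, and its repeatedly chilled libraries lay within the control range. The gene body of SIG4 overlaps AT5G13720 on the opposite strand. The counting is not stated to use strand, so reads of the pair cannot be told apart. AT5G13720 itself was at 36.6, 29.4 and 33.7 FPKM in control, 32.1, 27.2 and 31.6 after one chilling and 25.7, 25.5 and 22.3 after repeated chilling.

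The order of the levels changed in the middle. In control it ran SIG1, SIG2, SIG6, SIG3, SIG5, SIG4, and among neighbours the pairs SIG2 and SIG6, SIG3 and SIG5, and SIG5 and SIG4 overlapped. After one chilling it ran SIG1, SIG6, SIG5, SIG2, SIG3, SIG4, and among neighbours SIG5 and SIG2 overlapped. After repeated chilling it ran SIG1, SIG6, SIG2, SIG5, SIG3, SIG4, where SIG6 overlapped SIG2 and SIG2 overlapped SIG5. In control SIG5 overlapped SIG3 and SIG4, with its highest library, 34.2 FPKM, above all of theirs and its lowest, 17.8 FPKM, below. In both cold groups SIG5 lay above every SIG3 and SIG4 library.

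The first comparison asks how plants chilled once differed from control. Changes were estimated with limma on log2(FPKM + 1) over 17740 genes, and a gene is called when its Benjamini-Hochberg adjusted p is below 0.05. In this comparison 52.3% of tested genes were called, 18.7% higher and 33.6% lower. With median-of-ratios scaling of the libraries 50.6% of the called genes were higher, against 35.7% without it. Of the 6 sigma factor genes 4 were called higher and 1 lower. SIG5 rose by 1.36 ± 0.21 (SE) on the log2 scale (limma adjusted p = 0.000645), and 96.8% of tested genes had a lower change. SIG6 rose by 1.1 ± 0.11 (adjusted p = 5.43e-05), above 95.4% of genes. The rise of SIG1 was 0.72 ± 0.10 (adjusted p = 0.000395) and that of SIG2 was 0.55 ± 0.11 (adjusted p = 0.00216).

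Groups without overlap made up 24% of tested genes for higher and 40.6% for lower, and the members called were those without overlap. SIG4 fell by 0.45 ± 0.13 on the log2 scale (limma adjusted p = 0.0193), and SIG3 had a change of -0.07 ± 0.11 (adjusted p = 0.615). The median over all tested genes was -0.16 in this comparison, and -0.01 after median-of-ratios scaling. Relative to that median, SIG4 was at -0.29 and SIG3 at 0.09. With median-of-ratios scaling SIG4 was at -0.27 (adjusted p = 0.143) and no longer called. It also lost its call without control replicate 2, without cold once replicate 1 and without cold once replicate 3, where the highest adjusted p was 0.0716. Of the leaf markers 1 was called higher and 3 lower after one chilling, and 1 higher and 2 lower after repeated chilling. Among all tested genes 18.7% and 14.6% were called higher and 33.6% and 24.9% lower. With median-of-ratios scaling 1 leaf marker was called higher and 1 lower in each of these comparisons. The part of the leaf markers in the results was not tested. In tissue pieces, fewer cells of a type and less RNA per cell cannot be told apart.

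The second comparison asks the same for repeated chilling. Here 39.5% of tested genes were called, 14.6% higher and 24.9% lower (37.0% of the calls higher, 50.8% with median-of-ratios scaling), and 4 of the 6 members were called higher and 0 lower. They were the 4 called higher after one chilling. Groups without overlap made up 19% of tested genes for higher and 31.7% for lower, and these 4 members did not overlap control. SIG5 rose by 1.21 ± 0.21 (limma adjusted p = 0.00192), SIG6 by 0.87 ± 0.11 (adjusted p = 0.000334), SIG2 by 0.64 ± 0.11 (adjusted p = 0.00165) and SIG1 by 0.59 ± 0.10 (adjusted p = 0.00182). SIG3 had a change of 0.15 ± 0.11 (adjusted p = 0.316) and SIG4 of -0.01 ± 0.13 (adjusted p = 0.965). The all-gene median was -0.10, and SIG4 was at 0.11 with median-of-ratios scaling. Both comparisons use the same 3 control libraries, so their values are not separate evidence. The 4 rises stayed called when the flower marker level was added as a covariate, an alternative chosen after seeing the data: SIG5 was then at 1.43 (adjusted p = 0.00379) and 1.27 (adjusted p = 0.00774) in the 2 comparisons. SIG4 after one chilling was then at -0.36 (adjusted p = 0.112). The flower sums were 7.51 to 34.0 FPKM in control and 0.583 to 5.21 after one chilling, without overlap. In that comparison the covariate can hardly be told apart from the group, and the part of flower RNA in the rises was not tested.

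Between the cold groups, 1.27% of tested genes were called with limma, 0.738% higher and 0.536% lower, and 0 of the 6 members. Of these calls 58.0% were higher, and 33.4% with median-of-ratios scaling. The number of genes behind this share, 226, depended on single libraries. It was 17 without cold once replicate 3, 39 without repeated cold replicate 1 and 7 with only the compared groups in the fit. Leaving out any library but control replicate 2 and cold once replicate 1 moved the number by over 1.5 times. At an unadjusted p below 0.05 there was 1 of the 6 members, SIG4, a count given without the share of all tested genes at that p. Limma voom on the recovered reads also called 0 members. SIG4 was higher after repeated than after one chilling by 0.44 ± 0.13 on the log2 scale (limma adjusted p = 0.122), with an unadjusted 95% interval of 0.14 to 0.74, and the 2 groups of libraries did not overlap. SIG6 was lower by 0.23 ± 0.11 (limma adjusted p = 0.267), with an interval of -0.48 to 0.01, and its groups did not overlap either. SIG3 was higher by 0.22 ± 0.11 (limma adjusted p = 0.308), again without overlap. Groups without overlap were common in this comparison, at 13.9% of tested genes for higher and 9.92% for lower. The intervals of the other members also include 0, from -0.36 to 0.10 for SIG1, from -0.16 to 0.32 for SIG2 and from -0.62 to 0.32 for SIG5, so changes of these sizes are not excluded. An F-test over the 3 groups called 49.4% of tested genes and 5 of the 6 members, all but SIG3 (limma adjusted p = 0.252).

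**Figure D2:**
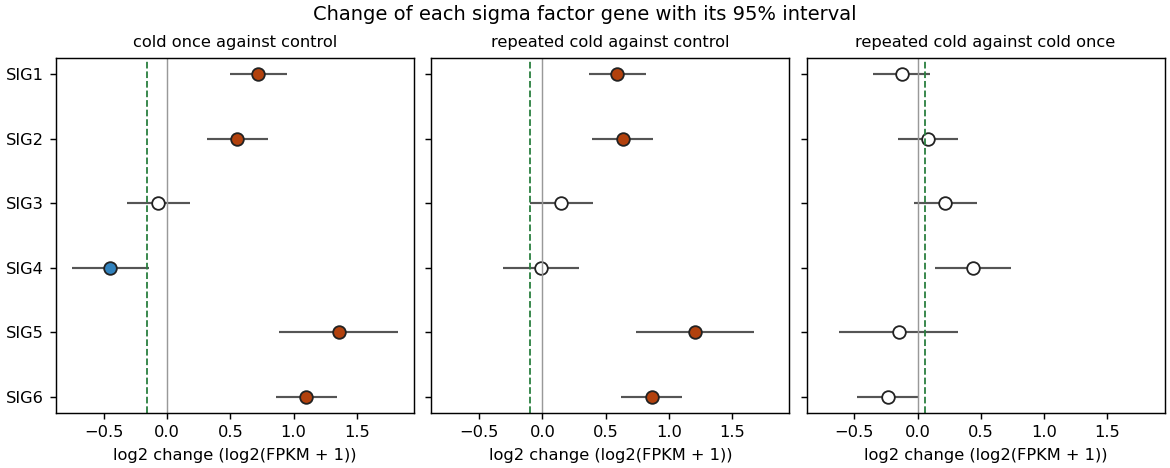
Change of each sigma factor gene on the log2(FPKM + 1) scale in the 3 comparisons, with 95% intervals. Filled points are called, and the dashed line is the median of all tested genes. SIG5 has the largest change over control after one chilling, 1.36, and SIG4 is the member below the all-gene median of -0.16 there.

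Because every member is measured per length, their FPKM can be summed to describe the pool of sigma factor transcripts. The sum was 221 to 244 FPKM in control, 365 to 406 after one chilling and 342 to 382 after repeated chilling. Neither cold group overlapped control, and the cold groups overlapped each other. The means were 233 ± 11.9, 380 ± 22.6 and 364 ± 20.5 FPKM (SD, n = 3).

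The make-up of this pool differed too. The share of SIG1 overlapped among all groups, at 33.3% ± 0.391 in control, 33.9% ± 0.431 after one chilling and 32.3% ± 1.73 after repeated chilling (SD, n = 3). SIG5 went from 10.8% ± 2.98 to 17.1% ± 1.58 and 16.0% ± 1.49, with no overlap between control and either cold group. SIG6 went from 16.3% ± 2.22 to 21.6% ± 0.639 and 19.1% ± 1.1, where the repeated cold libraries overlapped control.

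The shares of SIG3 and SIG4 were smaller in the cold groups. SIG3 was 11.7% ± 0.596 of the pool in control, 6.84% ± 0.456 after one chilling and 8.36% ± 0.891 after repeated chilling (SD, n = 3). SIG4 was 8.92%, 13.03% and 9.25% in the control libraries, 4.44%, 4.93% and 4.29% after one chilling and 6.67%, 6.75% and 6.16% after repeated chilling. No 2 groups overlapped for SIG4. The SIG3 share was smaller while its FPKM overlapped control, since the other members' levels enter the sum. Shares do not change when a library is multiplied by 1 factor, as in median-of-ratios scaling, and they were not computed after quantile normalization. They were not tested and are given as a description.

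**Figure D3:**
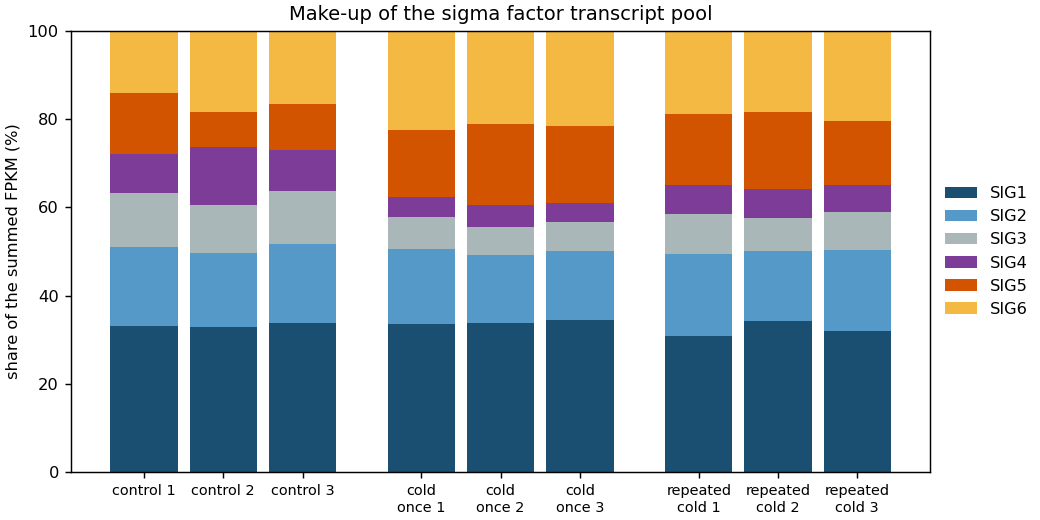
Share of each sigma factor gene in the summed FPKM of the 6 genes, in percent, for each library. The SIG1 part has means of 32.3% to 33.9%, the parts of SIG5 and SIG6 are wider in the cold groups, and the SIG4 part is narrowest after one chilling at 4.29% to 4.93%.

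Beside the sigma factors, PEP in leaves carries nuclear-encoded PEP-associated proteins (PAPs) that are needed for its activity. Of the 12 PAP genes, 7 were called higher and 0 lower after one chilling, with a median change of 0.38, and 6 higher and 0 lower after repeated chilling, with a median of 0.34. Over all tested genes 18.7% and 14.6% were called higher and 33.6% and 24.9% lower, with medians of -0.16 and -0.10. PTAC2, the PAP2 pentatricopeptide protein, was at 9.50, 9.20 and 10.3 FPKM in control, 18.4, 19.0 and 17.4 after one chilling and 18.9, 14.6 and 25.3 after repeated chilling. It rose by 0.85 ± 0.17 and 0.92 ± 0.17 on the log2 scale (limma adjusted p = 0.00234 and 0.00242). PTAC12, the PAP5 protein also known as HEMERA, rose by 0.71 ± 0.14 (limma adjusted p = 0.00224) and 0.49 ± 0.14 (adjusted p = 0.0204). TRXZ, a plastid thioredoxin, rose by 0.44 ± 0.11 (limma adjusted p = 0.0101) and 0.35 ± 0.11 (adjusted p = 0.0362). MURE, a relative of a bacterial cell wall ligase, rose by 0.49 ± 0.14 (limma adjusted p = 0.0137) and 0.44 ± 0.14 (adjusted p = 0.0295). PTAC12 and TRXZ overlap neighbouring genes, so their reads may be shared. Without repeated cold replicate 1, 4 of the 12 were called after repeated chilling, and without control replicate 1 or repeated cold replicate 3 PTAC12, TRXZ and MURE each lost that call. TRXZ lost it in 6 of the 9 leave-outs and MURE in 5, and both lost it with only the compared groups in the fit (adjusted p = 0.0562 and 0.0599). With the flower covariate 5 and 4 of the 12 were called in the 2 comparisons. With median-of-ratios scaling 9 and 7 were called higher and 0 lower. Higher calls over all tested genes grew as well under that scaling, from 3314 and 2592 to 4536 and 3470.

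A second list held the nuclear phage-type polymerases and known partners of sigma factors. Of 10 members tested, 3 were called higher and 2 lower after one chilling, and 2 higher and 2 lower after repeated chilling, with medians of 0.12 and 0.21. Calls in either direction thus numbered 5 and 4 of 10, near the 52.3% and 39.5% over all tested genes. SIB2, a sigma factor binding protein, was not analysed here. RPOTp, the plastid phage-type polymerase that reads the rpo genes among others, was at 8.24, 7.80 and 7.73 FPKM in control, 11.9, 15.4 and 15.4 after one chilling and 13.4, 11.8 and 17.2 after repeated chilling. It rose by 0.77 ± 0.15 and 0.75 ± 0.15 (limma adjusted p = 0.00214 and 0.00373). RPOTmp, its relative that is found in mitochondria and plastids, was at 3.38, 3.10 and 3.52 FPKM in control, 2.07, 2.42 and 2.59 after one chilling and 1.58, 1.88 and 1.85 after repeated chilling. No 2 of these groups overlapped. RPOTmp fell by 0.37 ± 0.11 (limma adjusted p = 0.0207) and by 0.65 ± 0.11 (adjusted p = 0.00189), and the first of these was not called with median-of-ratios scaling (-0.23, adjusted p = 0.112), nor without control replicate 1, control replicate 3 or cold once replicate 1.

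DG1, a pentatricopeptide protein that interacts with SIG6, moved opposite to SIG6. It was at 10.3, 10.13 and 11.7 FPKM in control, 4.49, 4.86 and 4.85 after one chilling and 6.86, 3.69 and 6.99 after repeated chilling. It fell by 1.03 ± 0.19 (limma adjusted p = 0.00179) and by 0.81 ± 0.19 (adjusted p = 0.00861), and all cold libraries lay below control. FLN2, a fructokinase-like protein of the PEP complex, rose by 0.75 ± 0.14 (limma adjusted p = 0.00201) and 0.56 ± 0.14 (adjusted p = 0.0132). The last of these was not called without control replicate 1 (highest adjusted p = 0.0524).

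**Figure D4:**
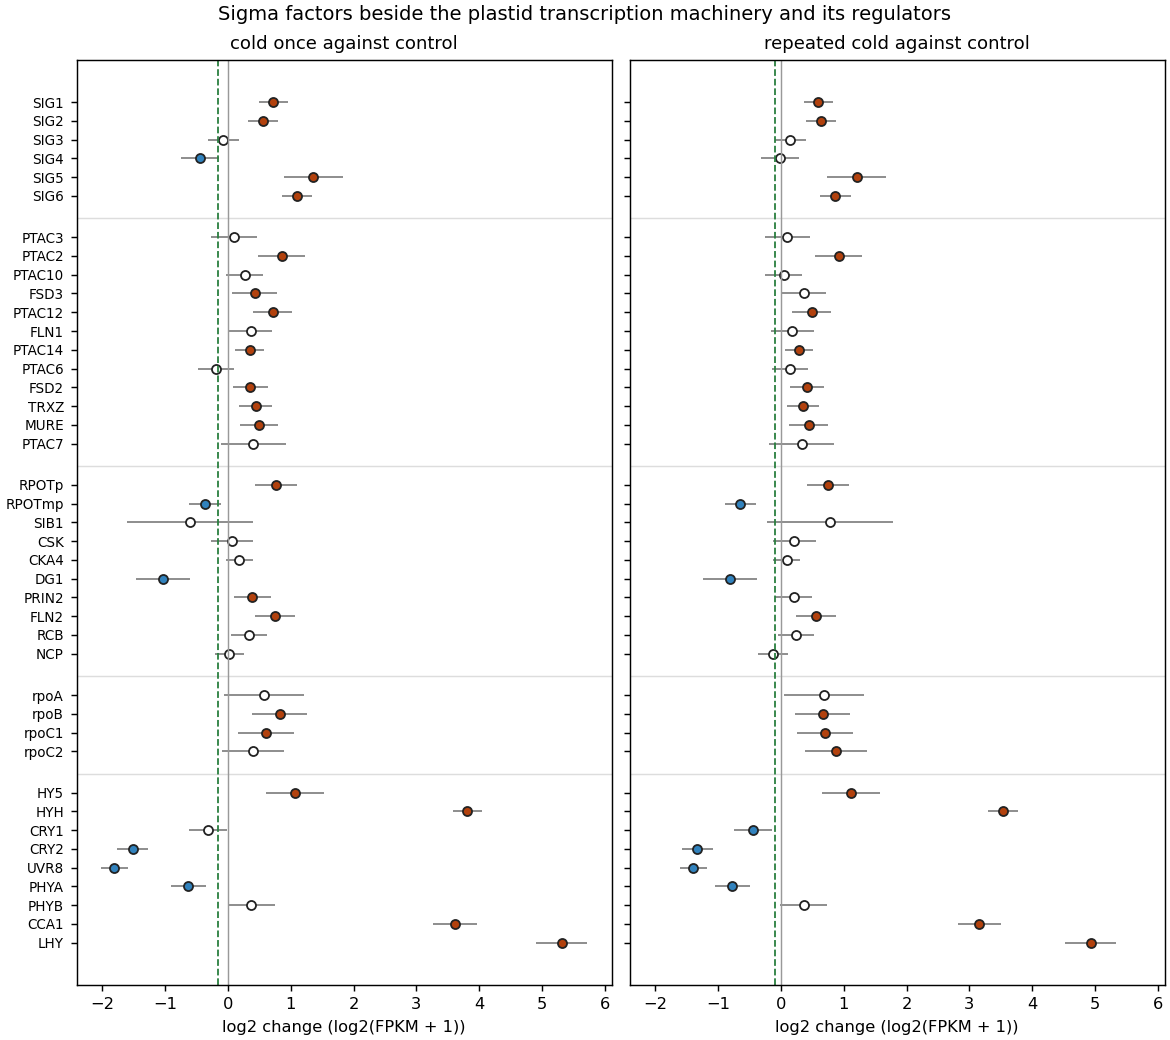
Change over control on the log2(FPKM + 1) scale for the sigma factor genes, the other genes of the plastid transcription machinery and the light and clock regulators, after one and after repeated chilling, with 95% intervals. Filled points are called genes and the dashed line is the all-gene median. PTAC2, RPOTp and FLN2 are on the higher side in both comparisons, and DG1 and RPOTmp on the lower side.

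The core that sigma factors serve is encoded in the plastid. Libraries were made with an mRNA kit, and plastid transcripts mostly lack long poly(A) tails, and the part of their capture in these levels was not tested. Of the 4 rpo genes, 2 were called higher after one chilling and 3 after repeated chilling, 0 lower, with medians of 0.59 and 0.69. In control rpoA was at 0.705, 0.806 and 0.907 FPKM and rpoC2 at 0.845, 0.507 and 0.835. Both lay below the filter value of 1 FPKM there and passed the filter through cold libraries alone. Their changes, and their part in these counts and medians, are therefore a description and no support for a rise. Among all tested genes the shares were 18.7% and 14.6% higher and 33.6% and 24.9% lower, with medians of -0.16 and -0.10. rpoB was at 5.72, 3.84 and 6.54 FPKM in control, 10.6, 9.25 and 10.5 after one chilling and 9.94, 6.74 and 10.5 after repeated chilling. It rose by 0.82 ± 0.19 (limma adjusted p = 0.00628) and 0.66 ± 0.19 (adjusted p = 0.0236). rpoC1 rose by 0.61 ± 0.20 (limma adjusted p = 0.0271) and 0.70 ± 0.20 (adjusted p = 0.0195), and rpoC2 had changes of 0.40 ± 0.22 (adjusted p = 0.151) and 0.87 ± 0.22 (adjusted p = 0.012). rpoA had changes of 0.57 ± 0.28 (limma adjusted p = 0.115) and 0.69 ± 0.28 (adjusted p = 0.0808). After one chilling rpoA and rpoC2 were called with quantile normalization (adjusted p = 0.0463 and 0.0421), with only the compared groups in the fit (0.0047 and 0.0462) and without repeated cold replicate 2 (0.00793 and 0.0313). After repeated chilling rpoA was at 1.06 without that library (limma adjusted p = 0.00152). Without repeated cold replicate 1, 1 of the 4 was called after repeated chilling. The calls of rpoB and rpoC1 there were also lost without control replicate 2 or repeated cold replicate 3. The rpoC1 call after one chilling was lost without control replicate 2 and without each of the once-chilled libraries in turn, and with the flower covariate 0 of the 4 rpo genes were called in either comparison.

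Of 11 tested plastid genes known to be read from sigma-linked promoters, 1 was called higher and 0 lower in each comparison with control. Higher calls made up 18.7% and 14.6% of all tested genes, and lower calls 33.6% and 24.9%. ndhF, the SIG4 target, was below the filter on low values. The median change of the 11 was 0.13 after one chilling, beside -0.16 over all tested genes. After repeated chilling it was 0.90, beside -0.10. Without repeated cold replicate 1, the library rich in plastid RNA, it was -0.20, beside -0.13. psbD, the target of SIG5, was at 3.99, 7.70 and 4.45 FPKM in control, 5.13, 6.39 and 3.70 after one chilling and 55.4, 5.45 and 2.86 after repeated chilling. Apart from that library its values overlapped across the groups, and this gene was named after its values were seen. psbN, the SIG3 target, was at 0.353, 1.89 and 1.43 FPKM in control, 1.88, 2.59 and 1.86 after one chilling and 7.84, 3.37 and 1.09 after repeated chilling, and was not called (limma adjusted p = 0.352 and 0.109).

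The called gene was psbT, a small photosystem II subunit, at 4.11, 3.42 and 4.63 FPKM in control, 9.23, 8.14 and 7.71 after one chilling and 12.3, 8.72 and 4.72 after repeated chilling. It rose by 0.89 ± 0.26 (limma adjusted p = 0.0175) and 0.85 ± 0.26 (adjusted p = 0.0288). The psbT gene is short (plastid 74082-74183), so these FPKM rest on few reads, and the counting error given for members does not cover it. The first call was lost without control replicate 2 and without cold once replicate 1 (highest adjusted p = 0.0564). The second was lost without repeated cold replicate 1 or 2 and without control replicate 1 or 2. Limma voom on recovered reads (adjusted p = 0.0705) and a fit with only the compared groups (limma adjusted p = 0.0522) did not call it either. With the flower covariate the changes were 0.92 ± 0.35 and 0.87 ± 0.33, no smaller, and neither was called (adjusted p = 0.0588 and 0.0747). psbA, the photosystem II reaction centre gene, was at 39.8, 126 and 29.6 FPKM in control, 42.8, 67.6 and 26.3 after one chilling and 994, 67.4 and 25.2 after repeated chilling. psaJ, a photosystem I subunit, was at 43.1, 40.3 and 43.8 FPKM in control, 56.2, 28.9 and 39.0 after one chilling and 77.1, 72.9 and 45.3 after repeated chilling. Neither was called. Without repeated cold replicate 3, psaJ was called after repeated chilling at 0.81 (limma adjusted p = 0.0294) and psbN at 1.55 (adjusted p = 0.0153). The psbN gene is short as well (plastid 74249-74380), with FPKM down to 0.353 in control, so its values rest on few reads. Its highest value, 7.84 FPKM, is that of repeated cold replicate 1, the library rich in plastid RNA.

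**Figure D5:**
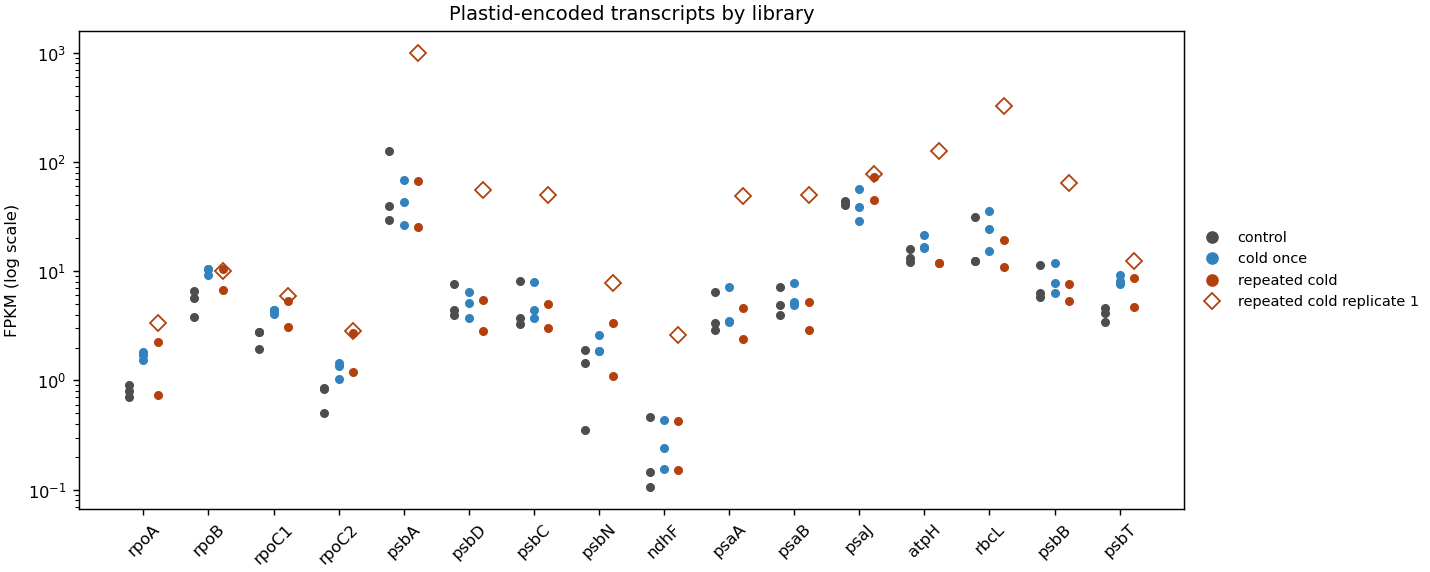
FPKM, on a log scale, of the 4 rpo genes and of 12 plastid genes with a sigma-linked promoter in each library, with repeated cold replicate 1 as open diamonds. That library reaches 994 FPKM for psbA, where the other 8 lie between 25.2 and 126.

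Light and clock regulators known to act on sigma factor genes changed in both directions. SIG5 in particular is known to respond to cryptochromes through HY5 and to be gated by the clock. Of 9 listed genes, 4 were called higher and 3 lower after one chilling, and 4 higher and 4 lower after repeated chilling. Over all tested genes 18.7% were called higher and 33.6% lower after one chilling, and 14.6% and 24.9% after repeated chilling. With median-of-ratios scaling or quantile normalization 5 of the 9 were called higher in both comparisons. The added gene was PHYB, a red light receptor named here after its values were seen. Higher calls over all tested genes grew as well, from 3314 and 2592 without scaling to 4536 and 3470 with median-of-ratios scaling. With quantile normalization they numbered 4468 and 3366. HY5, a bZIP factor of light signalling, was at 3.85, 7.19 and 5.76 FPKM in control, 12.2, 13.3 and 12.1 after one chilling and 11.4, 16.8 and 11.3 after repeated chilling. It rose by 1.07 ± 0.20 (limma adjusted p = 0.00205) and 1.12 ± 0.20 (adjusted p = 0.00251). HYH, its homolog, was at 8.29, 8.56 and 7.93 FPKM in control, 136, 127 and 124 after one chilling and 104, 121 and 95.9 after repeated chilling. Its rises were 3.81 ± 0.10 (limma adjusted p = 7.61e-08) and 3.54 ± 0.10 (adjusted p = 1.29e-07).

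Of the 5 photoreceptor genes 3 were called lower after one chilling and 4 after repeated chilling, and 0 were called higher, beside 33.6% and 24.9% of all tested genes called lower. With median-of-ratios scaling PHYB was called higher, at 0.54 (limma adjusted p = 0.0134) and 0.47 (adjusted p = 0.0314). CRY2, a blue light receptor, fell by 1.52 ± 0.11 (limma adjusted p = 9.45e-06) and by 1.33 ± 0.11 (adjusted p = 3.25e-05), and CRY1 had changes of -0.31 ± 0.13 (adjusted p = 0.076) and -0.44 ± 0.13 (adjusted p = 0.0269). The first CRY1 change was called with the flower covariate (-0.51, adjusted p = 0.0161), with only the compared groups in the fit (adjusted p = 0.0235) and without repeated cold replicate 2 or 3 (adjusted p = 0.0271 and 0.0399). The second CRY1 call was lost with median-of-ratios scaling (-0.32, adjusted p = 0.0669). Leaving out control replicate 1, control replicate 3, repeated cold replicate 1 or repeated cold replicate 2 ended it too. UVR8, the UV-B receptor, fell by 1.81 ± 0.10 (limma adjusted p = 2.21e-06) and by 1.40 ± 0.10 (adjusted p = 1.42e-05). The morning clock genes CCA1 and LHY rose by 3.61 ± 0.15 (limma adjusted p = 5.85e-07) and 5.31 ± 0.18 (adjusted p = 1.82e-07) after one chilling, and by 3.16 ± 0.15 (adjusted p = 2.15e-06) and 4.93 ± 0.18 (adjusted p = 3.63e-07) after repeated chilling. With no sampling hour given, time of day and chilling cannot be told apart. The part of the clock genes in the sigma factor levels was not tested. Between the cold groups 0 members of these 5 lists, with 12, 10, 4, 11 and 9 tested, were called with limma or with limma voom. At an unadjusted limma p below 0.05 there were 7: PTAC6, RPOTmp, SIB1, psaJ, HYH, UVR8 and CCA1. The share of all tested genes at that p is not given, so this count is no result about the lists. PTAC6 and SIB1 are named here after their values were seen.

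The genes whose profile was most like that of each member were found among 12400 genes with a mean of at least 5 FPKM, by the root-mean-square distance of centred log2(FPKM + 1) profiles over the 9 libraries. For SIG5 they were HAB1 (a protein phosphatase of abscisic acid signalling), GGAT2 (a photorespiratory aminotransferase) and ndhT (a subunit of the chloroplast NDH complex). HAB1 was closest at a distance of 0.126, and had means of 13.5 ± 3.01, 33.3 ± 2.55 and 30.6 ± 2.00 FPKM (SD, n = 3) in control, after one and after repeated chilling. These 3 genes stayed nearest to SIG5 under each of the other pseudocounts and scalings tried. For SIG6 they were BCA4 (a carbonic anhydrase, distance 0.0568), PPL1 (a PsbP-like protein) and RPL35. BCA4 had means of 55.3 ± 1.05, 120 ± 3.01 and 103 ± 10.6 FPKM (SD, n = 3).

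The nearest genes were AT1G06690, AT5G42070 and SPP2 (a sucrose phosphatase) for SIG1, and AT1G71810, AT3G02060 and AT4G15810 for SIG2. For SIG3 they were AT3G27390, ZFN3 and EZA1, and for SIG4 AT5G24215, STKL1 and SCPL25. With quantile normalization 0 of the 3 remained for SIG2 and for SIG4, and 1 of the 3 for SIG1, SIG3 and SIG6. The libraries behind every profile are the same 9, so the likeness is a description without a test.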

How the data were processed

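RNA was sequenced in 9 Arabidopsis libraries, 3 in each of 3 groups. The authors deposited FPKM per gene, and the tools per the submitters' processing notes were TopHat, Cufflinks and Cuffdiff. Their versions and the genome build are not given in the sources used here. Coordinates were checked against TAIR10.1, and 25094 of the 25099 loci found there have the same start and end. FPKM steps gave whole reads, within 0.01 read, for 25320 of 25320 genes (100%), and the recovered depth was 17.98 to 21.49 M reads per library. Counting errors cover counting only.

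Genes with at least 1 FPKM in at least 3 libraries (17740) were tested in limma 3.58.1 (R 4.3.3) with a trended prior on log2(FPKM + 1), all 3 groups in a single fit, and Benjamini-Hochberg adjustment. Fold changes on that scale understate those of low genes. p-values measure the spread between these libraries, which may be technical. A run of the test on simulated reads changed few genes, at a fixed spread, unlike these data. It therefore cannot vouch for the calls here. Python 3.11.15, numpy 2.4.6, pandas 2.3.3 and matplotlib 3.10.9 were used for the rest. Upstream windows of 250 bases were read from the RefSeq copy of TAIR10.1.

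All 6 members were named, with the 4 members of each list with the smallest F-test p, HY5, HYH, CRY1, CRY2 and CCA1, and the 3 genes nearest in profile to each member. Members and lists were chosen with earlier results of these data known. Alternatives changed the pseudocount, the filter, the scaling, the libraries in the fit and a replicate block. Limma voom on recovered reads and the flower covariate were added after seeing the data.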

Additional observations from a re-analysis of the deposited data

How the results depend on the processing

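The calls of SIG1, SIG2, SIG5 and SIG6 against control, and the lack of a call for SIG3, held under each alternative run, and the number of members called over the 5 lists together after one chilling stayed within 1.5 times of its value. SIG4 did not hold. Its change after one chilling was -0.27 with median-of-ratios scaling, -0.32 with quantile normalization, -0.29 with limma voom and -0.36 with the flower covariate, all short of a call, and -0.55 to -0.32 with 1 library left out in turn. After repeated chilling it turned to 0.11, 0.065, 0.11 and 0.072 in the same order, and ranged from -0.074 to 0.12 with 1 library left out. The adjusted p of its F-test was then 0.114, 0.096, 0.107 and 0.063, and 0.0196 to 0.12 with 1 library left out. SIG3 after one chilling was at 0.11, 0.0015 and 0.11 with median-of-ratios scaling, quantile normalization and limma voom. The scalings move the median of all genes to about 0 by construction, and beyond that the cause was not tested.

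The number of genes called between the cold groups was 226, against 112 without a filter on low values, 368 with median-of-ratios scaling, 704 with the replicate block and 7 with only the 2 groups in the fit, where fewer libraries estimate the spread, and 17 to 208 with 1 library left out. The members called over the 5 lists after repeated chilling, 22 in all, numbered 14 to 22 with 1 library left out and 16 to 24 under the other alternatives. Same-numbered libraries deviated together with correlations of -0.108 to 0.463, 6 of 9 over 0.1, and 6 of 9 libraries correlated best with their own number. These values do not settle whether the numbers pair the samples, and the main fit has no block. Under the block SIG4 differed between the cold groups by 0.44 (limma adjusted p = 0.0461), and no other call of a sigma factor gene changed. CRY1 after one chilling was also called under the block.

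Leaving out 1 library turned the sign of changes that were not called. After one chilling, psbA ranged from -0.73 to 0.30 and psaJ from -0.33 to 0.14, with 0.096 and 0.093 for psaJ under median-of-ratios scaling and limma voom. After repeated chilling psbA ranged from -0.35 to 2.27. Between the cold groups the ranges were -0.13 to 0.25 for PTAC2, -0.20 to 0.082 for MURE, -0.16 to 0.090 for RPOTp, -0.18 to 0.48 for rpoA, -0.27 to 0.016 for rpoB, -0.057 to 0.33 for rpoC1, -0.038 to 2.59 for psbA, -0.031 to 1.01 for psbN, -0.32 to 0.28 for psbT, -0.13 to 0.13 for HY5 and -0.26 to 0.0046 for CRY1. With quantile normalization rpoA was at -0.035, rpoC1 at -0.024 and HY5 at -0.027, and HY5 was at -0.015 and -0.021 with median-of-ratios scaling and limma voom. The planned edgeR test on recovered reads was not run, and limma voom took its place. Counting error was at most 4.63% for a member, and the number of libraries, 3 per group, limits the precision of every comparison.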
